A study of Caenorhabditis elegans with 4 samples.

Results

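The cytosolic ribosomal proteins of *C. elegans* were taken as all genes of the deposited table whose name is *rpl-* or *rps-* followed by a number. The rule found 76 of 42048 genes, 45 of the large subunit (*rpl-*) and 31 of the small subunit (*rps-*). All are protein-coding genes in the WBcel235 annotation. Expression was measured by RNA-seq of rRNA-depleted total RNA from embryos, with 2 biological replicates per genotype. Wild type was the N2 strain grown on bacteria carrying the empty RNAi vector L4440. *meg-1 meg-2* embryos came from *meg-1(vr10)* worms, which carry a partial deletion of *meg-1*, fed bacteria expressing double-stranded RNA against *meg-2*. MEG-1 and MEG-2 are intrinsically disordered proteins of the germ plasm. In both groups, worms were fed RNAi bacteria at 20°C from the first larval stage, and embryos of mixed cell types were released from young adults by bleaching. The germline precursors are a minority of the cells in such embryos, the study's methods describe harvests from large cultures as early embryos without an exact stage, and knockdown by RNAi leaves some of the target RNA.

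The ribosome builds proteins in every cell. Its small subunit reads the mRNA, and its large subunit joins amino acids and threads the new chain through an exit tunnel. Each ribosome holds a single copy of nearly every ribosomal protein, so cells usually make these proteins in matched amounts, and their mRNAs are among the most abundant of a growing cell. In the worm, ribosomes loaded into the oocyte carry the embryo through development: embryos without any rRNA genes of their own hatch before they arrest.

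Values are given in fpm, read counts that the authors scaled by the size factor of each library and by a library size shared by all libraries. The deposited columns hold genotype means, and each mean was resolved into whole reads of its 2 libraries, called A and B within a genotype. The libraries had between 20662429 and 26017429 reads on genes, of which rRNA genes took between 7.65 and 9.02%. The RNA of the targeted genes followed the labels: *meg-1* went from 83.2±13.7 fpm in wild type to 0.868±0.039 fpm in *meg-1 meg-2* embryos (SD, *n*=2), and *meg-2* from 22.8±4.50 to 7.40±1.64 fpm (SD, *n*=2). Embryo markers did not have the same balance in the 4 libraries. Of 13 maternal and oocyte markers, 13 were higher in *meg-1 meg-2* embryos by limma (adjusted *P* below 0.05), with a summed level of 1278 and 1655 fpm in wild type A and B against 2252 and 2301 fpm. Of 10 early zygotic markers tested (14 listed), 7 were higher, with sums of 238.1 to 307.6 fpm against 412.9 to 418.4 fpm. Of 8 muscle markers, 6 were lower, with sums of 3607 and 2503 fpm against 1982 and 2039 fpm. Of 4 epidermal markers tested (7 listed), 3 were lower. Over all 12734 genes tested, 13.8% were called higher and 7.84% lower. Markers of the mother's tissues were scarce: the 6 yolk protein genes summed to at most 2.94 fpm, and 6 major sperm protein genes to at most 0.708 fpm. Of the latter, *msp-3*, *msp-19* and *msp-142* had 0 reads in all 4 libraries, and *msp-31*, *msp-33* and *msp-78* had a few.

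Ribosomal protein mRNAs were abundant in both genotypes and slightly less so in *meg-1 meg-2* embryos. The 76 genes summed to 29775 and 28348 fpm in wild type A and B, and to 25456 and 26960 fpm in *meg-1 meg-2* A and B, a change in the mean of -9.82%. Both *meg-1 meg-2* sums were below both wild-type sums. As a share of the reads on genes, the family took 3.14 and 2.84% in wild type and 2.52 and 2.62% in *meg-1 meg-2* embryos. With 2 libraries against 2, an exact two-sided permutation test cannot give a *P* below 0.333, so no test was made of the sums. In bulk RNA, fewer cells of a type and less RNA per cell cannot be told apart.

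**Figure D1:**
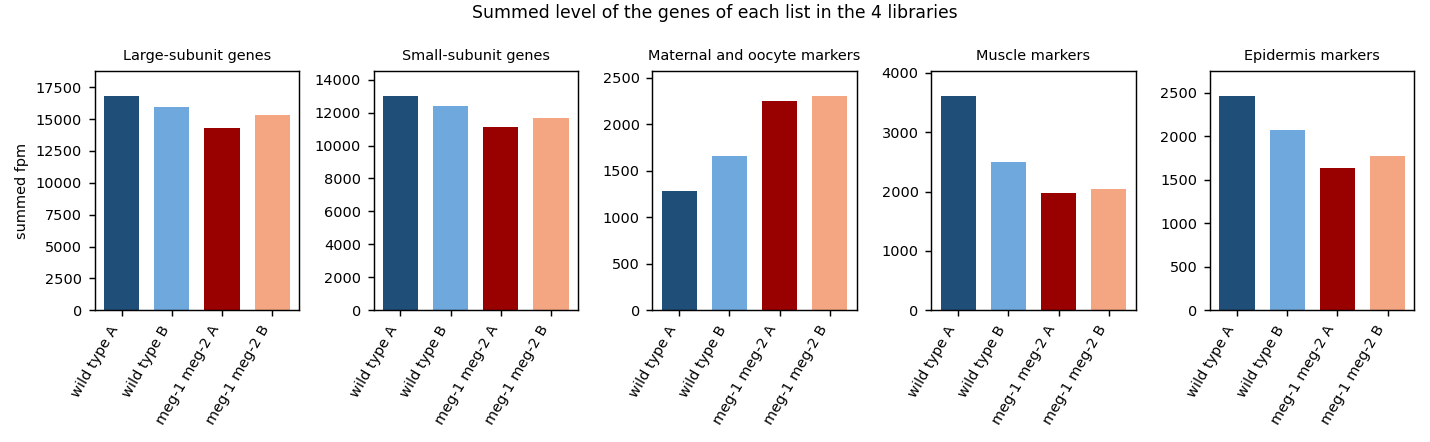
Summed level in fpm of the 45 large-subunit genes, the 31 small-subunit genes and 3 marker lists, with 1 bar per library and each axis starting at 0. Both subunit sums are highest in wild type A and lowest in *meg-1 meg-2* A, and the maternal and muscle marker sums also differ between wild type A and B.

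The subunits kept the same proportion. The 45 large-subunit genes summed to 16383±573 fpm in wild type against 14808±675 fpm in the *meg-1 meg-2* samples (SD, *n*=2), a change of -9.62%. The 31 small-subunit genes summed to 12678±437 and 11400±389 fpm (SD, *n*=2), a change of -10.1%. The ratio of the large to the small sum was 1.29 in wild type A, 1.29 in wild type B, 1.29 in *meg-1 meg-2* A and 1.31 in *meg-1 meg-2* B. These ratios differed by less between genotypes than between the 2 *meg-1 meg-2* libraries.

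Most members sat within a narrow range of levels. A level comparable between genes needs division by gene length, and fpm per kb of the deposited length, which is mostly the coding length, is used for this. The median of the 76 genes was 828 fpm per kb in wild type against 729 fpm per kb in the *meg-1 meg-2* samples. In wild type 68 of the 76 genes, and in *meg-1 meg-2* embryos 70 of the 76, were within 2-fold of that median. All 31 small-subunit genes were within 2-fold of their own median in both genotypes, between 505 and 1167 fpm per kb in wild type and between 434 and 1202 fpm per kb in *meg-1 meg-2* embryos. The 8 genes with a lower level than any small-subunit gene in wild type were large-subunit genes.

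**Figure D2:**
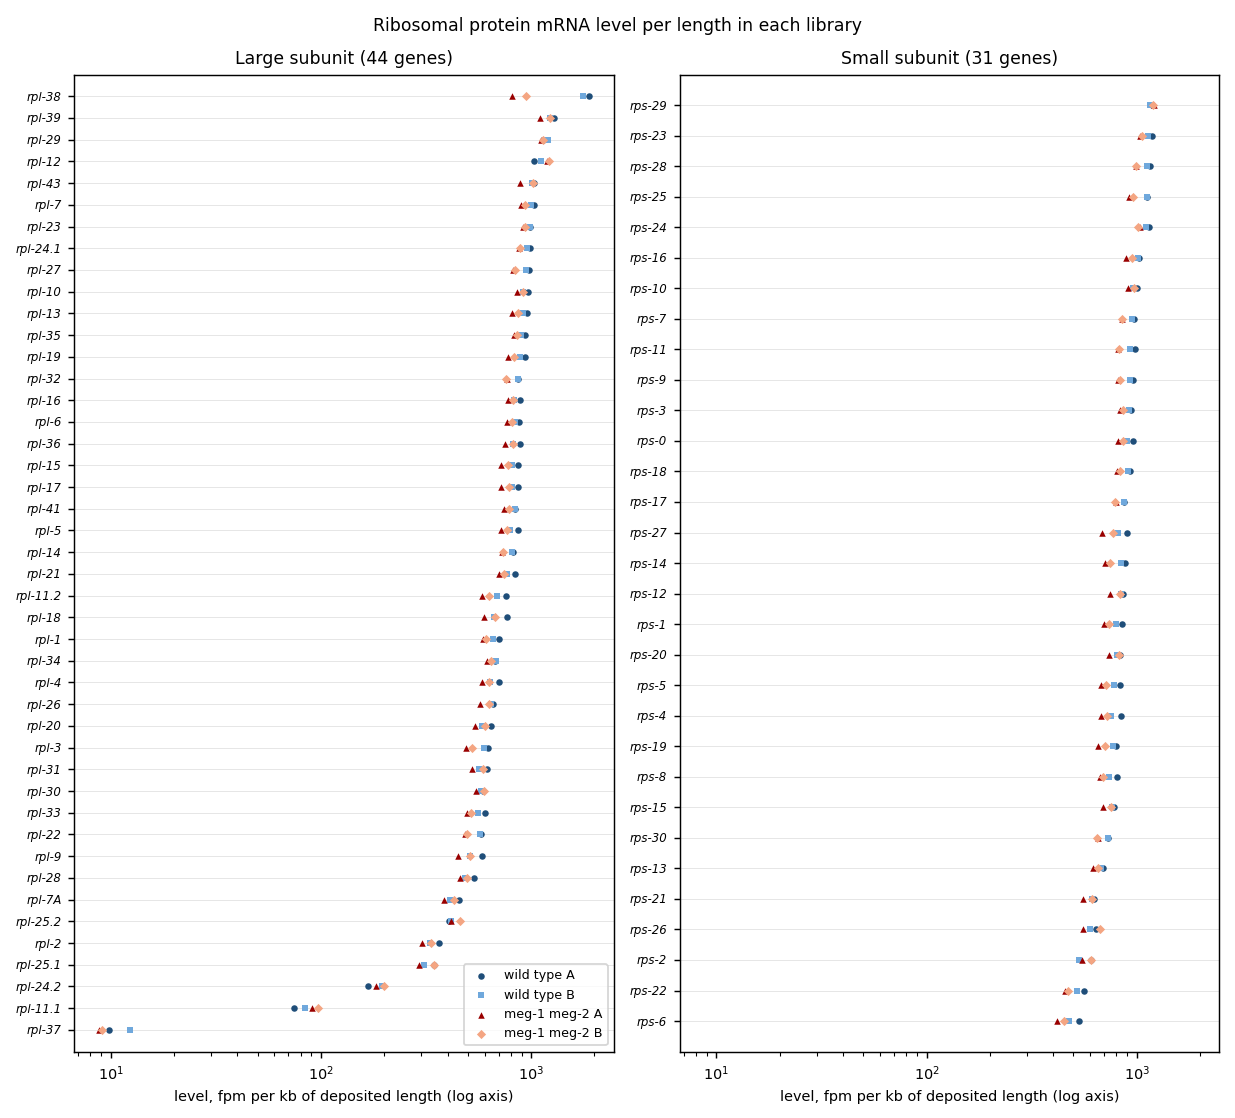
Level in fpm per kb (log axis) of the 75 genes that passed the filter, 1 row per gene ordered by the wild-type mean, with 1 symbol per library. Most genes lie close to the medians of 828 and 729 fpm per kb, *rpl-38* leads only in the wild-type libraries, and *rpl-37*, *rpl-11.1* and *rpl-24.2* lie far below.

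The 5 highest wild-type levels per length belonged to *rpl-38*, *rpl-39*, *rpl-29*, *rps-29* and *rps-23*. *rpl-39* encodes a small protein of the exit tunnel wall and had a level of 1251 fpm per kb in wild type against 1167 fpm per kb in the *meg-1 meg-2* samples. *rpl-29*, a short basic protein of the large-subunit surface, had levels of 1172 and 1121 fpm per kb. *rps-29*, a zinc-binding protein of the small-subunit head, had levels of 1167 and 1202 fpm per kb. *rps-23*, a protein of the decoding centre, had levels of 1158 and 1045 fpm per kb. The order among these was close, whereas *rpl-38* stood apart in wild type at 1891 and 1762 fpm per kb, rank 1 in both libraries. In *meg-1 meg-2* A and B it was at 811 and 948 fpm per kb, rank 23 and 11.

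Of the genes at the bottom, *rpl-42* (*C09H10.1*) had 1 read in each wild-type library and 0 reads in both *meg-1 meg-2* libraries, under the limit that a count of 3 reads allows (0.114 to 0.149 fpm), and no fold was computed. *rpl-37* (*C54C6.1*) had 5.44 and 6.83 fpm in wild type against 4.87 and 5.03 fpm in the *meg-1 meg-2* samples. It overlaps *pitp-1* on the opposite strand, which had 1053 and 931 reads in wild type against 567 and 576 in the *meg-1 meg-2* samples. The strand setting of the counting was not given, so reads of *rpl-37* and *pitp-1* cannot be told apart with certainty. The deposited length of *rpl-37*, 555 bp, is longer than its span in WBcel235 (3528642 to 3528917), so its level per length is uncertain. Whether a gene with another name encodes the same protein was not examined. The other 3 of the 5 lowest genes, *rpl-11.1*, *rpl-24.2* and *rpl-25.1*, belong to paralog pairs. The gene listed as *rpl-41* (*C09H10.2*) is now named *rpl-36.A*, and it sat in the middle of the range, at 837 fpm per kb in wild type.

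The levels were then compared gene by gene, by limma on log2(fpm + 0.5) across the 12734 genes with a mean of at least 1 fpm. 75 of the 76 members passed this filter, all except *rpl-42*. After adjustment over all genes tested, 0 members were higher and 1, *rpl-38*, was lower in *meg-1 meg-2* embryos (adjusted *P* below 0.05), while 13.8% of all genes tested were called higher and 7.84% lower. At an unadjusted *P* below 0.05, 5 members differed, all lower (*rpl-38*, *rpl-3*, *rpl-11.2*, *rps-25*, *rps-14*). That unadjusted count was between 23 and 52 under other scalings (43 with total reads, 52 with cyclic loess) and between 1 and 59 without single libraries. On the recovered reads, 6 members were lower by edgeR after adjustment (40 members at an unadjusted *P* below 0.05) and 1 by DESeq2 (8 unadjusted). At 1.5-fold or more with an unadjusted *P* below 0.05, 0 members were higher against 5.53% of all genes, and 1 was lower against 3.12%. The 1.5-fold count was the same under each alternative. The count of 1 member lower after adjustment changed with the scaling and when single libraries were left out. These choices also moved the adjusted calls over all genes tested (998 lower and 1760 higher in the main fit). Members made up 11 of 1160 genes called lower after adjustment with scaling by total reads (1263 higher), and 19 of 1173 with cyclic loess. Without 1 library the spread comes from the other genotype's pair alone, and the lone library is assumed to vary like it.

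The differences leaned one way, although *rpl-38* alone was called in the main fit. The log2 difference was below 0 for 69 of the 75 members, with a median of -0.15, whereas the median over all genes tested was 0.01, with 6297 of 12734 below 0. Both *meg-1 meg-2* libraries lay below both wild-type libraries for 55 of 75 members, and above for 3, while over all genes tested 30.1% lay below and 35.4% above. Other protein-coding genes of similar abundance, 1034 genes with a wild-type mean between the 5th and 95th percentile of the members, had a median of 0.08, with 112 called lower and 157 higher. The large-subunit median was -0.13 (44 genes, 40 below 0) and the small-subunit median was -0.17 (31 genes, 29 below 0). Leaving out *rpl-38*, a choice made after its value was seen, gave a large-subunit median of -0.12. Over all alternatives tried, the large-subunit median stayed between -0.21 and -0.09 and the small-subunit median between -0.24 and -0.14.

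**Figure D3:**
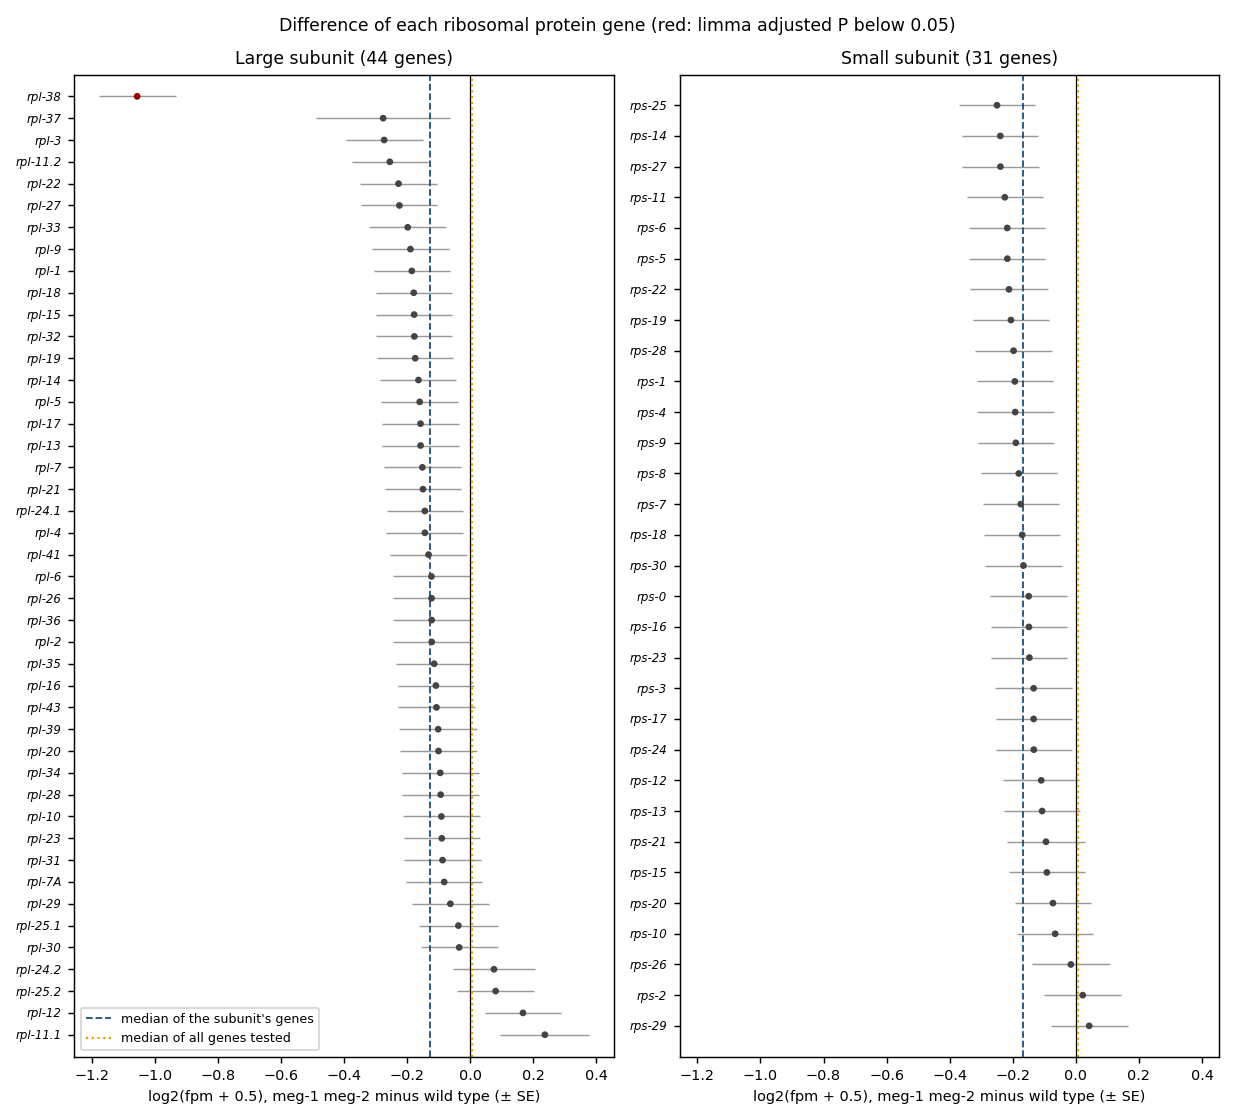
Difference in log2(fpm + 0.5), *meg-1 meg-2* minus wild type, for each of 44 large-subunit and 31 small-subunit genes, with limma standard errors. Points gather near the subunit medians (dashed, -0.13 and -0.17), left of the median of all genes tested (dotted, 0.01), with *rpl-38* alone at -1.06.

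The members also moved together between replicates. Of the 75 tested, 64 were higher in wild type A than in wild type B (median log2 difference 0.06), and 69 were higher in *meg-1 meg-2* B than in *meg-1 meg-2* A (median 0.09). Over all 12734 genes tested, these counts were 5053 (median -0.10) and 6187 (median -0.004). The highest of the 4 libraries was wild type A for 60 members, and the lowest was *meg-1 meg-2* A for 64. Taken library by library, the member median was -0.22 for *meg-1 meg-2* A against wild type A, -0.15 for A against wild type B, -0.14 for *meg-1 meg-2* B against wild type A, and -0.08 for B against wild type B. The size of the shared difference thus varied about as much with the libraries chosen as its own median, and its direction held in the 4 pairings, with between 55 and 71 of 75 members below 0. Wild type A was also the library with the highest muscle and the lowest maternal marker sums, and the part of these markers in the difference was not tested.

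*rpl-38* differed from the rest. It encodes a small protein on the outer face of the large subunit, whose loss in the mouse disturbs the patterning of the axial skeleton. It lies on chromosome V at 15512166 to 15512737 on the plus strand (WBcel235). Its level was 402.8 and 375.2 fpm in wild type A and B (10588 and 9785 reads), compared with 172.6 fpm in *meg-1 meg-2* A and 201.9 fpm in *meg-1 meg-2* B (3902 and 4056 reads). The highest *meg-1 meg-2* value was far below the lowest wild-type value. The log2 difference was -1.06±0.12 (SE, limma adjusted *P*=1.36e-11), and the largest difference of any other member was -0.28. The adjusted *P* was 0.054 when *meg-1 meg-2* A was left out and 0.223 when no filter on low levels was applied, with log2 differences of -0.94 and -1.06. In the other alternatives it was at most 0.009.

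The genes next to *rpl-38* had values of the same size. *C06B8.7*, the upstream neighbour on the same strand, had 23235 and 24818 reads in wild type against 8516 and 7928 in the *meg-1 meg-2* samples (log2 difference -1.25±0.12, adjusted *P*=1.65e-15). *lgc-31*, downstream on the other strand, gave -1.16±0.19 (adjusted *P*=1.11e-06), and *F21A3.3*, which lies within *lgc-31*, gave -1.28±0.23 (adjusted *P*=1.87e-05). From *srh-219* to *lgc-31*, a stretch of 26552 bp, 7 genes had at least 20 reads in all, and the 7 log2 ratios of mean fpm lay between -1.55 and -1.05. These 7 are not independent, since several overlap, and the ends of the stretch were chosen after the values were seen. Beyond it, *nhr-150* on one side and *F21A3.11* on the other had log2 differences of -0.21 and -0.16 (adjusted *P*=0.50 and 0.57). For each tested member, the median log2 difference of 4 tested protein-coding neighbours was taken, as many on each side, in order of start position. This median was -1.20 around *rpl-38*, and between -0.35 and 0.48 around the other 74 members. Whether the difference of *rpl-38* belongs to the gene or to its surroundings was not tested.

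**Figure D4:**
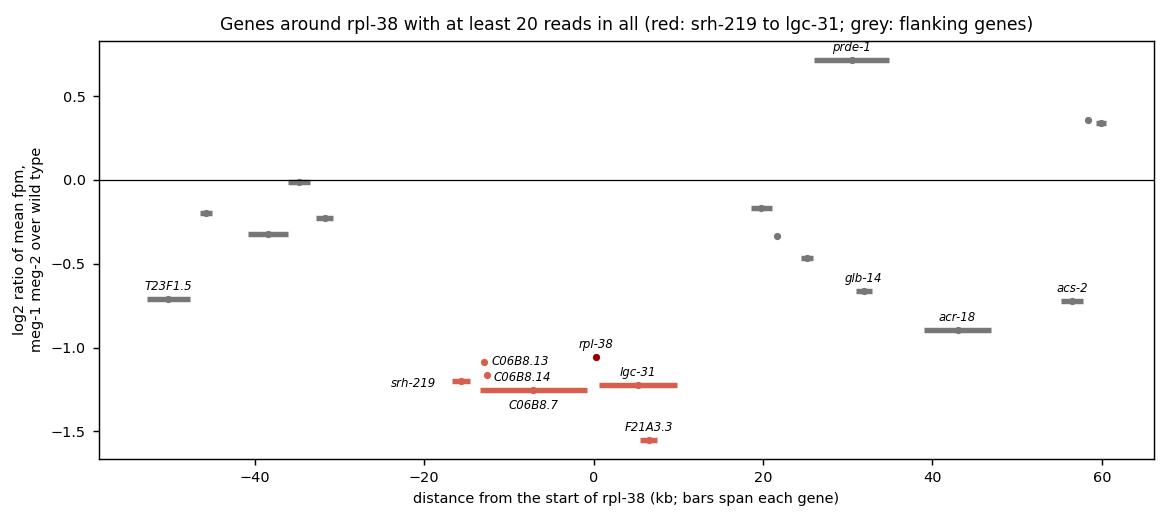
Log2 ratio of mean fpm, *meg-1 meg-2* over wild type, of genes with at least 20 reads against the distance in kb from the start of *rpl-38*, each bar spanning a gene. The 7 genes from *srh-219* to *lgc-31* lie between -1.55 and -1.05, and the genes next to them on either side are closer to 0.

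By position in the large subunit, 0 members of the groups below were called, and the groups differed in spread. The proteins of *rpl-2*, *rpl-3* and *rpl-10* lie around the peptidyl transferase centre, where peptide bonds form. Of these genes 3 of 3 were below 0 and 0 were called. *rpl-3*, whose protein reaches into the centre, went from 827.3 and 797.3 fpm in wild type to 651.7 and 693.0 fpm. Its libraries did not overlap between genotypes, and its log2 difference of -0.27±0.12 (SE) was the largest of the abundant genes after *rpl-38* (adjusted *P*=0.093). In the 5S ribonucleoprotein, which docks as a unit on the large subunit, *rpl-5* had 766.4 and 698.8 fpm in wild type against 635.1 and 675.0 fpm in the *meg-1 meg-2* samples (log2 difference -0.16, adjusted *P*=0.346), while the copies of its partner, *rpl-11.1* and *rpl-11.2*, had 0.24 and -0.26. The 3 genes of the exit tunnel wall (*rpl-4*, *rpl-17*, *rpl-39*) had a median of -0.14, and the 6 genes of the tunnel exit rim, where nascent chain factors dock, a median of -0.10, with a range from -0.17 to 0.08 (*rpl-25.2*). In the GTPase-associated centre, where elongation factors act, *rpl-9* had -0.19 and *rpl-12* 0.17.

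*rpl-12* went the other way. Its protein forms the base of the stalk that calls in the elongation factors. Its level was 636.6 and 686.9 fpm in wild type against 731.5 and 753.5 fpm in the *meg-1 meg-2* samples, so that both mutant libraries were higher, and it moved from rank 9 to rank 1 of the members per length. The log2 difference was 0.17±0.12 (SE, adjusted *P*=0.324). *rpl-12*, *rpl-1*, *rpl-3* and *rpl-7A* are known in the worm for alternative splice forms with early stop codons that nonsense-mediated decay removes. The other 3 genes of this list did not share the direction of *rpl-12*: *rpl-1* had -0.19 (471.0 and 441.2 fpm against 394.6 and 407.0 fpm, adjusted *P*=0.262) and *rpl-7A* -0.08 (adjusted *P*=0.648). Counts per gene do not separate the splice forms.

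In the small subunit, the members at the mRNA exit (*rps-0*, *rps-5*, *rps-14*, *rps-26*, *rps-28*) had a median of -0.20, and those at the mRNA entry and decoding centre (*rps-2*, *rps-3*, *rps-9*, *rps-23*, *rps-30*) a median of -0.15. *rps-25*, known in yeast and mammals for its part in initiation on viral internal ribosome entry sites, had 398.4 and 396.6 fpm in wild type against 327.0 and 341.6 fpm in the *meg-1 meg-2* samples. This was the largest small-subunit difference, at -0.25±0.12 (SE, adjusted *P*=0.120). *rps-14*, a platform protein, had 402.4 and 385.3 fpm against 323.8 and 343.4 fpm (-0.24, adjusted *P*=0.137). In both genes the genotypes did not overlap, and neither passed the test in the main fit. *rps-25*, *rps-14* and *rpl-3* each passed it in 7 of 19 alternatives. *rps-6*, the substrate of S6 kinase downstream of TOR, had the lowest small-subunit level per length in both genotypes and 394.4 and 353.5 fpm against 309.4 and 333.1 fpm (-0.22, adjusted *P*=0.183).

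The only small-subunit genes with a difference above 0 were *rps-29* and *rps-2*. *rps-29* had 191.1 and 187.1 fpm in wild type against 194.9 and 194.5 fpm in the *meg-1 meg-2* samples (0.04±0.12, SE, adjusted *P*=0.827). *rps-2*, whose protein lines the mRNA entry, had 497.7 and 434.9 fpm against 450.6 and 495.1 fpm, so its libraries overlapped (0.02±0.12, SE, adjusted *P*=0.912). Under scaling by total reads both values were just below 0 (-0.03 and -0.05).

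In 1 of the 3 paralog pairs, the copies differed in opposite directions without overlap between the genotypes. Such a lack of overlap was common: over all genes tested, 35.4% lay above and 30.1% below in both *meg-1 meg-2* libraries. *rpl-11.1* on chromosome V and *rpl-11.2* on the X chromosome encode copies of the 5S-binding protein. *rpl-11.1* had 44.1 and 49.5 fpm in wild type against 53.3 and 57.0 fpm in the *meg-1 meg-2* samples, the highest difference of all members (0.24±0.14, SE, adjusted *P*=0.217). *rpl-11.2* had 448.9 and 407.7 fpm against 344.2 and 373.1 fpm (-0.26±0.12, SE, adjusted *P*=0.114). The minor copy thus gave 8.94 and 10.8% of the pair's fpm in wild type and 13.4 and 13.3% in *meg-1 meg-2* embryos. Neither gene passed the test in the main fit. *rpl-11.2* passed in 6 alternatives (adjusted *P*=0.036 with total reads, 0.043 with quantile normalization, 0.039 with cyclic loess, 0.045 without the length trend, 0.018 without wild type A and 9.2e-05 without wild type B, and up to 0.822 in the others), and *rpl-11.1* without wild type B (0.0009, and up to 0.849 in the others). The difference between them (0.49 on the log2 scale) was not itself tested.

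The other pairs changed less. *rpl-24.1* made up between 81.4 and 85.3% of its pair in the 4 libraries, and *rpl-24.2*, which resembles an assembly factor of yeast that holds the place of the mature protein, had 81.8 and 95.7 fpm against 89.5 and 97.1 fpm (0.08, adjusted *P*=0.705). *rpl-25.1*, the other X-linked member, gave between 41.5 and 45.8% of its pair with *rpl-25.2*, and the log2 differences were -0.04 (adjusted *P*=0.850) and 0.08 (adjusted *P*=0.664). Their libraries overlapped between genotypes. Summed over each pair, the levels in wild type were 804, 1155 and 740 fpm per kb, inside the range of the other members. The lower gene of each pair was among the lowest members. The sum of the *rpl-24* pair may add a ribosomal protein and an assembly factor. Reads from closely related copies may be assigned wrongly between them, which makes the shares less certain than the sums.

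The family lies mostly on autosomes. Chromosomes I, II, III, IV and V held 21, 10, 18, 17 and 8 members, and the X chromosome held 2, or 2.63% of members against 13.6% of all protein-coding genes. The median log2 difference of members was between -0.17 and -0.13 on every chromosome, whereas over all genes tested it ranged from -0.15 on the X chromosome to 0.09 on chromosome I. On the X chromosome the member median was also -0.15, and it rests on 2 unlike genes, *rpl-11.2* (-0.26) and *rpl-25.1* (-0.04). Within members, 13 genes host 19 small nucleolar RNA genes, which guide modification of rRNA and other RNAs. 10 of these were tested, 0 were called, with 7 below 0 and 3 above, and their summed level was 27.09 and 24.16 fpm in wild type against 21.72 and 25.04 fpm in the *meg-1 meg-2* samples. Their median log2 difference was -0.16, against -0.12 for the 13 hosts. Over all small nucleolar RNA genes tested, 71 of 110 were below 0, with a median of -0.11 and 11 called, so the share below 0 inside members was close to that of the class. 14 members overlap another protein-coding gene, 10 of them on the opposite strand, where reads cannot be assigned with certainty.

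Ribosomal proteins that the name rule does not take behaved like the members. *rla-0*, *rla-1* and *rla-2* encode the stalk, *ubl-1* and *ubq-2* encode ribosomal proteins made as fusions with a ubiquitin-like protein or ubiquitin, and *rack-1* encodes a scaffold on the small subunit. In all 6 genes both *meg-1 meg-2* libraries lay below both wild-type libraries, as in 55 of 75 members and 30.1% of all genes tested. The median log2 difference was -0.15. Of the 6, 0 were called, while 7.84% of all genes tested were called lower. *ubl-1* had the largest value, from 292.9 and 269.4 fpm to 231.5 and 239.1 fpm (-0.25±0.12, SE, adjusted *P*=0.115), and passed the test in 8 of 19 alternatives. *rla-2* had the smallest, from 141.6 and 142.4 fpm to 140.3 and 140.5 fpm (-0.02, adjusted *P*=0.935). *rla-0*, *rla-1*, *ubq-2* and *rack-1* lay between, from -0.18 to -0.14.

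Genes of related machinery had other medians. For the counts called below, 13.8% of all genes tested were called higher and 7.84% lower. Of 66 mitochondrial ribosomal protein genes, whose products form the separate ribosome of that organelle, 57 were above 0, with a median of 0.11, and 1 was called higher (*mrpl-18*, 0.46, adjusted *P*=0.021) and 0 lower. Of 28 ribosome assembly and rRNA synthesis genes tested (29 listed), 20 were above 0, with a median of 0.07, and 1 was called higher (*rpoa-12*, a subunit of RNA polymerase I, 0.49, adjusted *P*=0.028). Of 6 elongation factor genes tested (9 names listed, 6 matched), 4 were called higher and 1 lower. *eef-1A.1*, which brings aminoacyl-tRNA to the ribosome, rose from 5105 and 5355 fpm to 6789 and 6880 fpm (0.39, adjusted *P*=0.048), while its paralog *eef-1A.2* fell from 766.1 and 826.2 fpm to 529.0 and 553.9 fpm (-0.56, adjusted *P*=0.00035). *eef-2*, the translocation factor, was at 2845 and 2950 fpm against 2862 and 2922 fpm (0.00, adjusted *P*=0.991). In mammals, elongation factor and ribosomal protein mRNAs share a pyrimidine tract at the 5′ end through which TOR controls their translation. The elongation factor median was 0.42 here, against -0.15 for the members, and the difference between the lists was not tested. Over the alternatives the mitochondrial median lay between 0.04 and 0.19 and the elongation factor median between 0.28 and 0.48, while that of ribosome assembly changed sign, between -0.03 and 0.19.

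**Figure D5:**
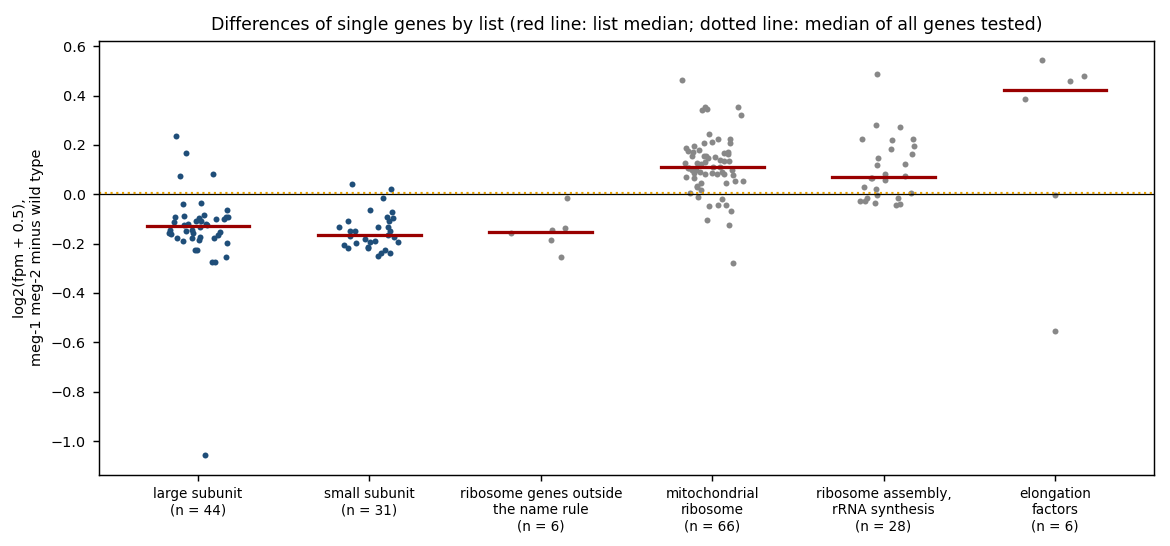
Difference in log2(fpm + 0.5), *meg-1 meg-2* minus wild type, of single genes in 6 lists, with the list median as a red line. The medians are -0.13 and -0.17 for the 2 subunits, -0.15 for the ribosome genes outside the name rule, 0.11 for the mitochondrial ribosome, 0.07 for ribosome assembly and 0.42 for elongation factors.

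Among 5 regulators, 1 was called, or 20%, close to the 21.7% called over all genes tested. *ncl-1*, a repressor of rRNA synthesis and nucleolar size in the worm, fell from 137.7 and 145.6 fpm to 96.2 and 103.8 fpm (-0.50, adjusted *P*=0.002). *larp-1*, whose mammalian counterpart binds ribosomal protein mRNAs, went from 401.4 and 431.3 fpm to 332.9 and 339.7 fpm and did not pass the test (-0.31, adjusted *P*=0.054). The S6 kinase gene *rsks-1* had -0.27 (adjusted *P*=0.105), and TOR (*let-363*) and Raptor (*daf-15*) had 0.10 and 0.07 (adjusted *P*=0.592 and 0.698).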

How the data were processed

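The authors removed rRNA with Ribo-Zero, prepared stranded libraries, added spike-in RNA, aligned reads to ce10 with HISAT2, counted them per gene with HTSeq and compared genotypes with DESeq2, giving a single table. Versions, annotation release and the strand setting of the counting are not given in the sources used here. Among the table's rows, 0 were spike-ins. The signal that the authors deposited, in fpm, is a mean over the 2 libraries of a genotype. Each library's counts are divided by its size factor and by a shared library size, the geometric mean of the library totals. The deposited FPKM values divide each mean by the gene's length in bp and entered no test. Columns with the authors' log2 fold changes and adjusted p-values were not used.

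Each mean was resolved into whole reads of its 2 libraries: 1 pair of whole numbers was found for 100% of wild-type means and all but 1 of the *meg-1 meg-2* means (*rrn-2.1*, settled from the size factors). Library A of a genotype is the one with the smaller fpm per read, and replicate labels were not assigned. The main test was limma 3.58.1 (R 4.3.3; lmFit, eBayes with trend) on log2(fpm + 0.5) for 12734 genes with a mean of at least 1 fpm, all 4 libraries, without a block, two-sided, with Benjamini-Hochberg adjustment. edgeR 4.0.16 and DESeq2 1.42.0 on the recovered reads were alternatives. Scripts were tested on simulated data. Intervals of 3 reads cover counting error only, since no molecular identifiers were used.

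Gene classes, coordinates and neighbours came from the WBcel235 annotation (41759 of 42048 identifiers matched), and no ce10 coordinate was converted. Named genes are the 5 members with the highest and the 5 with the lowest level per length, the 6 largest differences in each direction, paralogs, the 5S particle, genes with unproductive splice forms, *rps-6*, members called at 1.5-fold or under the filter, the 6 ribosome genes outside the name rule, *meg-1* and *meg-2*. *pitp-1*, the genes around *rpl-38* and those named from other lists were chosen after their values were seen. Members and lists were chosen with earlier results of these data known, so lists are described by counts and medians and not tested. No sequences are shown.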

Additional observations from a re-analysis of the deposited data

How the results depend on the processing

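Each result was recomputed under other pseudocounts (0.1 and 5 fpm), filters, scalings, limma settings, count models and without each library. The 1.5-fold count (1 lower, *rpl-38*) was the same under each. The number of members called lower was 11 with scaling by total reads, 6 with TMM, 17 with quantile normalization, 19 with cyclic loess, 2 after removal of the trend with gene length, 6 with edgeR and 0 without a filter, and between 0 and 52 when 1 library was left out (20 without wild type A, 52 without wild type B, 0 without *meg-1 meg-2* A, 1 without *meg-1 meg-2* B). The number called higher was between 0 and 3 when 1 library was left out (3 without wild type B). The large-subunit median was -0.20 with total reads, -0.19 with TMM, -0.21 with cyclic loess, -0.19 without the length trend and -0.20 with edgeR, and the small-subunit median -0.23, -0.23, -0.24, -0.22 and -0.23 in the same order, and -0.22 with quantile normalization. These settings moved the median of all genes tested from 0.006 to between -0.066 and -0.005. Without single libraries, the large-subunit median was between -0.18 and -0.09, the small-subunit median between -0.19 and -0.14, and the large minus small difference between 0.0052 (without *meg-1 meg-2* B) and 0.060 (0.038 with all libraries). Among named genes, 20 values changed sign, 49 gained a call, 3 lost one (*rpl-38* without *meg-1 meg-2* A and without a filter, *meg-2* without a filter) and 459 kept both direction and side of the threshold. Of the gains, 17 came without wild type B. *rps-2* was -0.046 with total reads, -0.045 with TMM, -0.045 with cyclic loess, -0.051 with edgeR, -0.039 with quantile normalization, -0.044 without the length trend, and between -0.075 and 0.119 without single libraries. *rps-29* was -0.026, -0.025, -0.055, -0.026 and -0.037 with total reads, TMM, cyclic loess, edgeR and quantile normalization. *rpl-24.2* was -0.037 with quantile normalization, -0.044 with cyclic loess and between -0.037 and 0.187 without single libraries. *rpl-25.2* was -0.00064 with quantile normalization and -0.018 with cyclic loess, and *rpl-25.1* was between -0.160 and 0.085 without single libraries. The cause was not tested. No paired analysis was possible because the columns are genotype means and carry no replicate numbers. Of the members, 6 with differences between -0.28 and -0.24 were not called with 2 libraries per genotype.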
